A study of Homo sapiens with 6 samples.

Results

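Tight junctions are belts of claudins, occludin and their cytoplasmic partners that close the space between neighbouring epithelial cells, and the PAR, Crumbs and Scribble complexes set up the apical and basolateral sides of the cell on which these belts depend. Claudins decide which ions pass between cells, the MARVEL proteins occludin, tricellulin and MARVELD3 lie beside them in the membrane, and scaffolds such as ZO-1 and cingulin tie them to actin. In the bile duct these junctions keep bile away from the liver tissue around it. The genes examined were the 38 symbols listed for these classes, matched to the table by name. PATJ and INADL are names of 1 gene, which the table lists as INADL, so the list held 37 genes. Of these, 34 were found among the 20811 genes of the table, and CLDN6, CLDN14 and TJP3 were not analysed here.

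The cells were HuCCT1, a human intrahepatic cholangiocarcinoma line. HuCCT1/CD90+ cells had been transduced with a human THY1-CMV-GFP lentivirus, in which THY1 encodes CD90, and HuCCT1/CD90− cells with the Lenti-CMV-GFP-2A-Puro-Blank Lentivirus, both at a multiplicity of infection of 40. Both lines therefore carried a lentivirus with GFP and a CMV promoter, and both were grown in RPMI medium with fetal bovine serum. Whether the lines are clones or mixed populations, and whether the 3 libraries of each line came from separate cultures, is not given in the sources used here, so p-values measure the spread between these libraries, which may be technical. Each gene was read from 1 amplicon, so its level can depend on which transcripts hold that amplicon, and ratios of one gene to another are given only to compare them between the lines.

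The 6 libraries held 8587634 to 10551516 reads on genes, and 3 reads, taken as the detection floor, were worth 0.284 to 0.349 RPM, reads scaled to an equal library total. Floors cover counting error only. THY1 had at most 1 read per library in HuCCT1/CD90− and 435 to 680 in HuCCT1/CD90+, where it was at least 179-fold higher. Markers of cholangiocytes and other epithelial cells were read in both lines, with all 8 listed genes above the floor and a summed level of 8227 to 9328 RPM in HuCCT1/CD90− against 11190 to 11980 RPM in HuCCT1/CD90+, and 4 of them passed the test below as higher. Of 6 fibroblast markers, 5 passed as lower, with a sum of 41.8 to 64.9 RPM in HuCCT1/CD90− against 20.3 to 24.7 RPM in HuCCT1/CD90+. The sixth, COL1A1, was level (means of 13.5 and 14.2 RPM) and made up most of the HuCCT1/CD90+ sum. With 1 library left out at a time, PDGFRB passed in all 6 fits, COL1A2, COL3A1 and DCN in 1 each and LUM in 0. Over all genes, 7.59% passed as higher and 7.49% as lower. Of 6 endothelial markers, 1 passed as lower (14.9 to 23.4 against 1.29 to 1.86 RPM in sum, with EMCN at 0). That gene, CDH5 (means of 16.6 against 0.293 RPM), made up most of the HuCCT1/CD90− sum. VWF was read in HuCCT1/CD90+ alone, with 1, 3 and 4 reads. Of 6 hepatocyte markers, 2 passed as lower (3.69 to 5.89 against 0 to 0.814 RPM, with TTR at 0), and of 5 leukocyte markers 2 were lower and 1 higher (130.6 to 154.6 against 88.9 to 106.7 RPM). The leukocyte sum was mostly CD14 (means of 80.85 against 4.32 RPM) and CD68 (50.8 against 92.2 RPM), which moved in opposite directions. In a fit that blocked on replicate number, the 4 epithelial markers were still higher, while 2 of the fibroblast, 1 of the endothelial, 1 of the hepatocyte and 1 of the leukocyte markers were lower and 1 leukocyte marker was higher. The part of these shifts in the results below was not tested, and in such libraries fewer cells that express a gene cannot be told apart from less RNA per cell.

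The lines were compared with limma, using log2(RPM + 1) and all 20811 genes. A gene is said to have risen or fallen where its adjusted p (Benjamini-Hochberg, over all genes) was at most 0.05 and its fold change on that scale at least 1.5. Log2 fold changes are HuCCT1/CD90+ minus HuCCT1/CD90− on that scale, which understates the change of low genes, while folds of means are ratios of mean RPM. Of the 34 genes, 19 (55.9%) rose in HuCCT1/CD90+, against 7.59% of all genes, and 0 fell, against 7.49% of all genes. The study's own limits, a 1.5-fold change and an unadjusted p of at most 0.05, were also put on this limma fit. By them 21 genes were higher, against 10.1% of all genes, and 1 was lower, against 9.98%. These are not the study's own calls, which were made in the Transcriptome Analysis Console. DESeq2 and a pseudocount of 0.1 RPM each gave 1 fall, which was CLDN2, and edgeR gave 0 among the members it tested, which did not include CLDN2. All 3 HuCCT1/CD90+ libraries lay above all 3 HuCCT1/CD90− libraries for 23 of the 34 genes, against 17.3% of all genes. The 34 genes had a median log2 fold change of 1.00, while that of the whole table was 0.000. Of the 34 genes, 5 had no read in any library, and these are part of both counts.

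**Figure D1:**
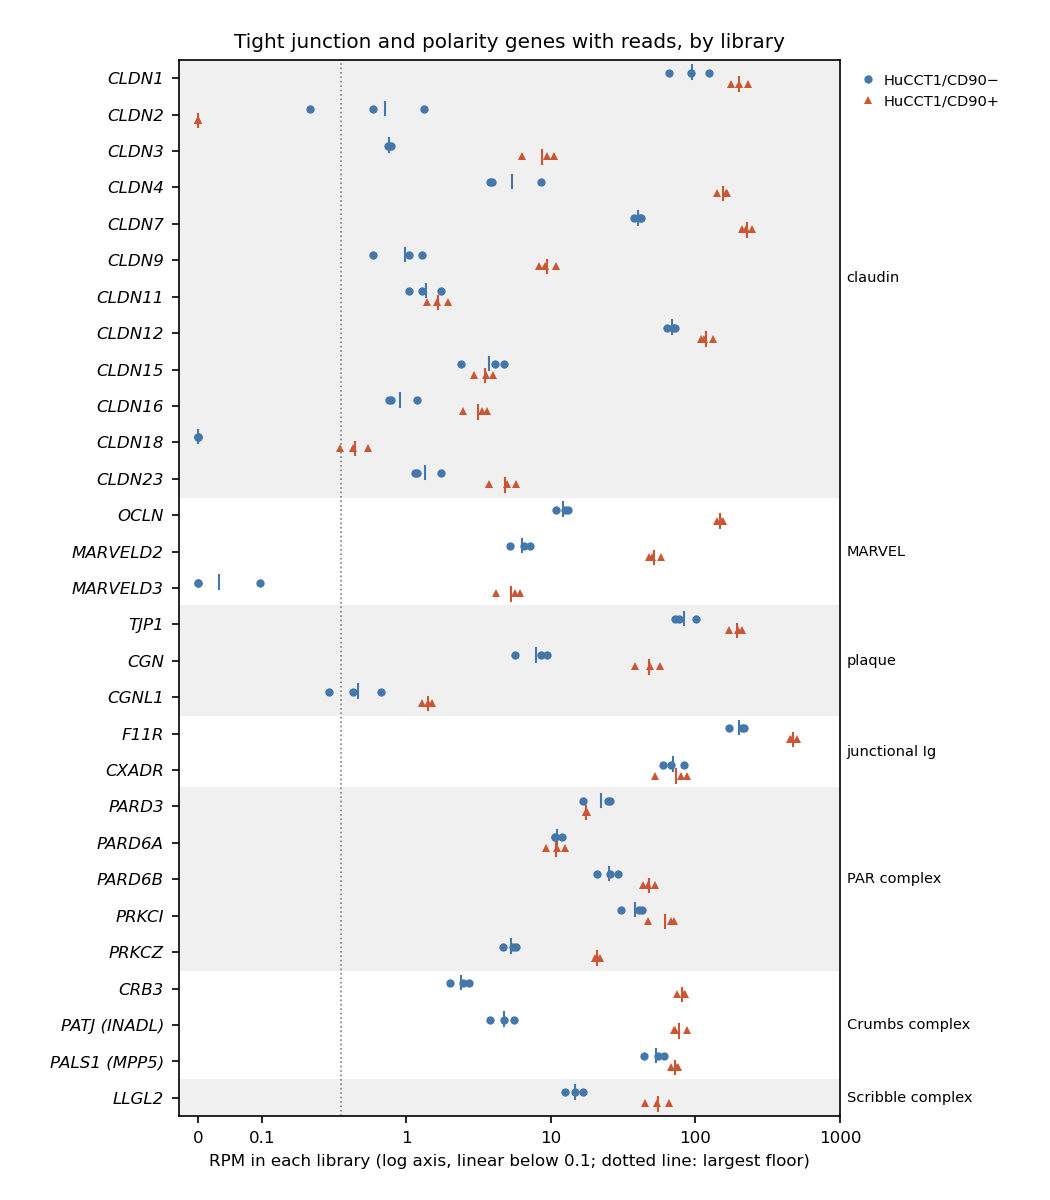
Level of each of the 29 members with reads in each library, in RPM on a log axis that is linear below 0.1 RPM, with 1 point per library, a short line at the mean of the 3 libraries and a dotted line at 0.349 RPM, the largest floor of a library. The points of HuCCT1/CD90+ lie to the right of those of HuCCT1/CD90− for 23 members, widely apart for CLDN4, OCLN, CRB3 and PATJ, and mixed with them for CLDN11, CLDN15, CXADR, PARD3 and PARD6A.

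Among the claudins, 7 of the 15 measured rose and none passed as lower. The widest difference was that of CLDN4, a sealing claudin of many glandular epithelia and a receptor for Clostridium perfringens enterotoxin. CLDN4 had 3.89, 8.56 and 3.78 RPM in HuCCT1/CD90− and 140.1, 166 and 161 RPM in HuCCT1/CD90+, a 28.8-fold difference of means. Every HuCCT1/CD90+ library was far above every HuCCT1/CD90− library. Its log2 fold change was 4.69 ± 0.32 (SE, adjusted p = 0.00216, limma), the highest of the 34 genes on the log2(RPM + 1) scale. With edgeR on the recovered reads, MARVELD3 (6.84) and CRB3 (5.075) stood above CLDN4 (4.86). CLDN3, also an enterotoxin receptor and the neighbour of CLDN4 on chromosome 7, had 0.758, 0.749 and 0.776 RPM in HuCCT1/CD90− and 6.33, 10.5 and 9.33 RPM in HuCCT1/CD90+. It stood at 7 to 8 reads per library in the first line and 59 to 90 in the second, and it rose by a log2 fold change of 2.44 ± 0.19 (SE, adjusted p = 0.00288, limma).

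CLDN7, a claudin found along the lateral membrane that also binds EPCAM, had the smallest standard error of the risen claudins, 0.08 on the log2 scale. It had 42.1, 41.4 and 37.3 RPM in HuCCT1/CD90− and 223, 247 and 210.2 RPM in HuCCT1/CD90+, means of 40.3 ± 2.56 and 227 ± 18.8 RPM (SD, n = 3 each). The log2 fold change was 2.46 (95% confidence interval 2.24 to 2.68, adjusted p = 0.000448, limma), with no overlap between the lines. CLDN9, best known from the inner ear, had 1.04, 1.28 and 0.582 RPM in HuCCT1/CD90− and 8.26, 10.8 and 9.12 RPM in HuCCT1/CD90+, a 9.70-fold difference of means (log2 fold change 2.41, adjusted p = 0.00266, limma). CLDN12, a claudin that lacks the PDZ-binding end of most others, was at 63.8, 71.8 and 69.7 RPM in HuCCT1/CD90− and at 114, 132 and 109 RPM in HuCCT1/CD90+. It rose by a log2 fold change of 0.78 (adjusted p = 0.00949, limma), the smallest among the risen members whose mean reached 10 RPM. CLDN12 lies on chromosome 7, where genes were higher together. Divided by the median change of the 50 genes nearest to it, its log2 fold change was 0.17 (adjusted p = 0.348, limma).

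CLDN16 and CLDN23 rose at low levels. CLDN16, the paracellin of kidney magnesium uptake, had 0.758, 1.18 and 0.776 RPM in HuCCT1/CD90− and 3.32, 2.45 and 3.58 RPM in HuCCT1/CD90+, from 8 to 11 and from 21 to 33 reads per library. CLDN23, which is little studied, had 1.14, 1.18 and 1.75 RPM against 4.93, 3.73 and 5.75 RPM. The lines did not overlap in either gene, and the log2 fold changes were 1.11 (adjusted p = 0.0135) and 1.30 (adjusted p = 0.0139, limma). With the replicate number as a block the adjusted p of CLDN16 was 0.0909, and with a pseudocount of 5 RPM its log2 fold change was 0.46, under the limit. CLDN16 lies among the raised genes of chromosome 3, and its log2 fold change was 0.67 (adjusted p = 0.0461, limma) with their median change divided out. Leaving out HuCCT1/CD90− replicate 3, HuCCT1/CD90+ replicate 1 or HuCCT1/CD90+ replicate 3 put CLDN16 at adjusted p-values of 0.0561, 0.0555 and 0.0522, and leaving out HuCCT1/CD90− replicate 1, HuCCT1/CD90− replicate 2 or HuCCT1/CD90+ replicate 1 put CLDN23 at 0.0509, 0.0549 and 0.0574.

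The claudins that did not pass included CLDN1, the claudin without which the skin barrier fails. CLDN1 had 65.3, 124 and 93.7 RPM in HuCCT1/CD90− and 199, 230 and 175 RPM in HuCCT1/CD90+. The lines did not overlap, but the HuCCT1/CD90− libraries were spread widely, and the log2 fold change of 1.12 (95% confidence interval 0.40 to 1.85) had an adjusted p of 0.0573 (limma). Its adjusted p was 8.23e-05 with edgeR and 3.22e-07 with DESeq2 on the recovered reads, and 0.0495 without HuCCT1/CD90− replicate 2. CLDN1 lies beside CLDN16 on chromosome 3 among genes that were higher together, and with their median change divided out its log2 fold change was 0.52 (adjusted p = 0.315, limma). CLDN2, the cation-conducting claudin of leaky epithelia such as the kidney proximal tubule, was the 1 claudin of these 15 that was seen in HuCCT1/CD90− alone. It had 14, 2 and 6 reads in HuCCT1/CD90− and no read in any library of HuCCT1/CD90+, which made it at least 2.03-fold lower there when set against the floor (adjusted p = 0.146 with limma and 0.00584 with DESeq2). HuCCT1/CD90− replicate 1 held most of these reads, and without it the bound was 1.14-fold. CLDN2 passed the study's limits with all libraries, but of the 6 fits with 1 library left out it passed them in 1, the fit without HuCCT1/CD90− replicate 2.

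CLDN18, a claudin of stomach and lung, was seen in HuCCT1/CD90+ alone, with 4, 3 and 5 reads against 0 in each HuCCT1/CD90− library. It was at least 1.37-fold higher in HuCCT1/CD90+ when set against the floor. Its adjusted p was 0.0062 (limma), while its log2 fold change of 0.52 on log2(RPM + 1) stayed under the limit, and DESeq2 on the recovered reads called it higher (adjusted p = 0.0273). CLDN11 and CLDN15 were at 1.04 to 4.71 RPM over all libraries and overlapped between the lines, with log2 fold changes of 0.18 (95% confidence interval -0.20 to 0.56) and -0.05 (-0.68 to 0.59). CLDN5, CLDN8 and CLDN10 had 0 reads in all 6 libraries. At this depth a count of 0 allows a level of up to 0.349 RPM in a library.

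All 3 MARVEL protein genes rose. OCLN encodes occludin, the first membrane protein found in the tight junction. It had 12.5, 10.9 and 13.1 RPM in HuCCT1/CD90− and 155, 141 and 149 RPM in HuCCT1/CD90+, a 12.2-fold difference of means. The libraries of each line lay close together and the lines did not overlap, and the log2 fold change was 3.51 ± 0.08 (SE, adjusted p = 0.000286, limma). MARVELD2, the neighbour of OCLN on chromosome 5, encodes tricellulin, which closes the corners where cells meet. It had 5.21, 7.17 and 6.50 RPM in HuCCT1/CD90− and 57.9, 50.2 and 47.5 RPM in HuCCT1/CD90+ (log2 fold change 2.86 ± 0.14 SE, adjusted p = 0.000978, limma). MARVELD3 had 0, 0 and 1 reads in HuCCT1/CD90− and 39, 52 and 52 reads in HuCCT1/CD90+. It was at least 16.5-fold higher in HuCCT1/CD90+, at 5.29 ± 0.985 RPM (SD, n = 3, adjusted p = 0.00124, limma). A transcribed partial copy of OCLN lies near it on chromosome 5, and whether the OCLN amplicon also reads that copy is not given in the sources used here.

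All 3 genes of the cytoplasmic plaque rose. TJP1 encodes ZO-1, the scaffold that gathers claudins and links them to actin. It had 72.7, 76.8 and 101 RPM in HuCCT1/CD90− and 198, 172 and 211 RPM in HuCCT1/CD90+, a 2.32-fold difference of means with no overlap (log2 fold change 1.21 ± 0.16 SE, adjusted p = 0.0119, limma). Without HuCCT1/CD90+ replicate 1 its adjusted p was 0.0519 and without HuCCT1/CD90+ replicate 3 it was 0.0523. CGN, which encodes cingulin, had 8.53, 9.31 and 5.63 RPM in HuCCT1/CD90− and 37.8, 56.9 and 48.5 RPM in HuCCT1/CD90+. Its 6.11-fold difference of means gave a log2 fold change of 2.47 ± 0.25 (SE, adjusted p = 0.00577, limma).

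CGNL1, which encodes the related paracingulin, was near the floor, with 7, 4 and 3 reads in HuCCT1/CD90− (0.663, 0.428 and 0.291 RPM) and 14, 11 and 13 reads in HuCCT1/CD90+ (1.501, 1.28 and 1.41 RPM). Its log2 fold change on log2(RPM + 1) was 0.72 (adjusted p = 0.0165, limma), and on the recovered reads it was 1.57 with edgeR (adjusted p = 0.0116) and 1.60 with DESeq2 (adjusted p = 0.0726). With limma it did not pass with the replicate block (adjusted p = 0.051), a pseudocount of 5 RPM (log2 fold change 0.23, under the limit) or when HuCCT1/CD90− replicate 2 or any 1 HuCCT1/CD90+ library was left out (0.0531 to 0.0686). The log2 ratio of OCLN to TJP1 within a library was -2.94 to -2.54 in HuCCT1/CD90− and -0.50 to -0.28 in HuCCT1/CD90+, ranges that did not overlap. This pair and those below were chosen with their values known and were not tested.

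Of the 4 junctional immunoglobulin protein genes, 1 rose. F11R encodes JAM-A, which binds PAR-3 and recruits it to new junctions, and it was at 170.0, 211 and 216 RPM in HuCCT1/CD90− and at 502, 447 and 466 RPM in HuCCT1/CD90+. All libraries of HuCCT1/CD90+ stood above those of HuCCT1/CD90−, a 2.37-fold difference of means (log2 fold change 1.25 ± 0.11 SE, adjusted p = 0.00474, limma). CXADR, the coxsackievirus and adenovirus receptor of the same membrane class, overlapped between the lines. It had 60.0, 67.3 and 83.4 RPM in HuCCT1/CD90− and 86.9, 52.5 and 79.4 RPM in HuCCT1/CD90+, a log2 fold change of 0.04 (95% confidence interval -0.62 to 0.69). The genome holds pseudogene copies of CXADR, CLDN7, TJP1, PARD6B, PRKCI and CRB3, and their reads could be shared with the genes. JAM2 and JAM3, found mainly in vessels and other cells outside epithelia, had 0 reads in all libraries.

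**Figure D2:**
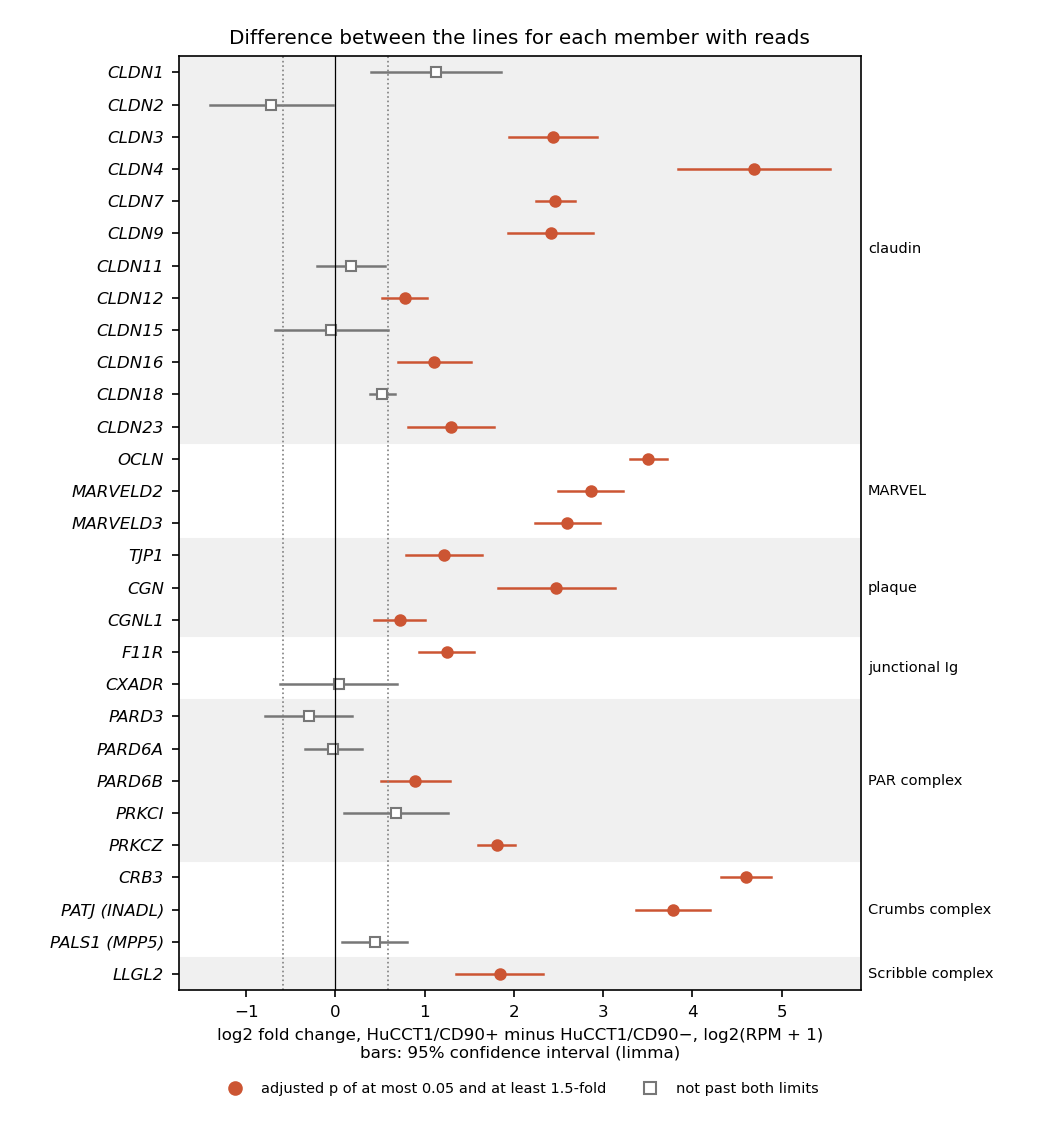
Log2 fold change of each of the 29 members with reads, HuCCT1/CD90+ minus HuCCT1/CD90−, on log2(RPM + 1), with its 95% confidence interval from limma and dotted lines at a 1.5-fold change. Filled circles mark the 19 members that rose, from 0.72 for CGNL1 to 4.69 for CLDN4, and open squares the members that did not pass both limits, which include CXADR, PARD3, PARD6A and PALS1 (MPP5).

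Of the 5 PAR complex genes, 2 rose. The PAR complex joins the scaffold PAR-3 (PARD3), a PAR-6 adaptor and an atypical protein kinase C, and each of the last 2 parts exists as paralogs. PRKCZ, the zeta kinase, had 4.64, 5.46 and 5.72 RPM in HuCCT1/CD90− and 21.8, 20.7 and 20.2 RPM in HuCCT1/CD90+. The libraries of each line were nearly equal, and its log2 fold change was 1.81 ± 0.08 (SE, adjusted p = 0.0008, limma). Its paralog PRKCI, the iota kinase, had 42.7, 30.7 and 40.4 RPM in HuCCT1/CD90− and 67.3, 47.3 and 70.6 RPM in HuCCT1/CD90+. The lines did not overlap, but the log2 fold change of 0.68 (95% confidence interval 0.10 to 1.26) had an adjusted p of 0.113 (limma). It passed with the replicate block (0.0325), with edgeR (0.00443) and with DESeq2 (0.00161), and with the change of its neighbours on chromosome 3 divided out its log2 fold change was 0.17 (adjusted p = 0.727, limma). The log2 ratio of PRKCZ to PRKCI was -3.20 to -2.49 in HuCCT1/CD90− and -1.81 to -1.19 in HuCCT1/CD90+.

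PARD6B had 25.6, 21.0 and 29.01 RPM in HuCCT1/CD90− and 46.8, 43.1 and 52.6 RPM in HuCCT1/CD90+, with no overlap (log2 fold change 0.90 ± 0.15 SE, adjusted p = 0.0213, limma). Its adjusted p was 0.0663 without HuCCT1/CD90− replicate 1 and 0.0737, 0.0552 and 0.0744 without HuCCT1/CD90+ replicates 1, 2 and 3. Its paralog PARD6A had 11.9, 10.6 and 10.7 RPM in HuCCT1/CD90− and 11.04, 12.5 and 9.22 RPM in HuCCT1/CD90+. These values overlapped, and the log2 fold change was -0.03 (95% confidence interval -0.35 to 0.29). PARD3 had 16.6, 24.6 and 25.6 RPM against 17.5, 17.7 and 17.6 RPM, a log2 fold change of -0.30 (95% confidence interval -0.78 to 0.18, adjusted p = 0.372, limma). HuCCT1/CD90− replicate 1 was the low one, and without it the adjusted p of PARD3 was 0.00369 at a log2 fold change of -0.49, still under the 1.5-fold limit.

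In the Crumbs complex, 2 of the 3 genes rose and both did so steeply. The complex holds a Crumbs membrane protein, the adaptor PALS1 (MPP5 in the table) and the multi-PDZ scaffold PATJ. CRB3, the Crumbs protein of most epithelia, had 1.99, 2.46 and 2.72 RPM in HuCCT1/CD90− and 74.0, 85.1 and 83.2 RPM in HuCCT1/CD90+. The means of 2.39 ± 0.368 and 80.8 ± 5.97 RPM (SD, n = 3 each) differed 33.8-fold, the widest ratio of means among the members above the floor in both lines, with a log2 fold change of 4.60 ± 0.11 (SE, adjusted p = 0.000299, limma). PATJ had 3.79, 5.56 and 4.75 RPM in HuCCT1/CD90− and 70.9, 72.7 and 88.0 RPM in HuCCT1/CD90+, a 16.4-fold difference of means (log2 fold change 3.78 ± 0.16 SE, adjusted p = 0.000731, limma). No library of one line came near those of the other for either gene.

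PALS1, which joins CRB3 to PATJ, had 44.0, 60.8 and 55.1 RPM in HuCCT1/CD90− and 67.2, 73.1 and 75.7 RPM in HuCCT1/CD90+. The lines did not overlap, and its log2 fold change of 0.44 (95% confidence interval 0.07 to 0.81) did not pass (adjusted p = 0.107, limma). Within a library, the log2 ratio of CRB3 to PALS1 was -4.63 to -4.34 in HuCCT1/CD90− and 0.14 to 0.22 in HuCCT1/CD90+, and that of PATJ to PALS1 was -3.54 to -3.45 and -0.01 to 0.22. LLGL2, an epithelial homolog of the fly tumour suppressor lethal giant larvae and the 1 Scribble complex member on the list, had 14.7, 16.6 and 12.4 RPM in HuCCT1/CD90− and 45.0, 65.6 and 54.4 RPM in HuCCT1/CD90+. It rose 3.78-fold in its means (log2 fold change 1.84 ± 0.18 SE, adjusted p = 0.0057, limma), with no overlap between the lines.

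The promoter windows of the members were searched for the E-box CAGGTG, read as CAGGTG or CACCTG, which is the letter pattern that the ZEB and SNAI repressors of epithelial genes bind. RefSeq windows of 250 bases before a start (GRCh38.p14) were at hand for 22 of the 34 genes, as 35 windows. The pattern lay in 9 of these 35 windows (25.7%), against 17.5% of all 35116 windows, and these 9 belonged to 7 genes. CRB3 had 5 matches in its window, a number reached by 26 windows (0.074%) of all, and 1 of the CLDN7 windows had 4, a number reached by 43 windows (0.122%). These 2 windows had the most matches of the 35 and were picked after the search. The matches of these 2 windows are shown with 5 bases on each side, 5′ to 3′ on the strand of the gene, with the pattern in capitals and named by the distance from the pattern's first base to the start. A match describes the letters of the window and not binding.
CRB3, 228 bases before the start, chr19:6464038-6464053, plus strand: caatgCAGGTGtaagg
CRB3, 208 bases before, chr19:6464058-6464073: cctcaCACCTGcgcgc
CRB3, 147 bases before, chr19:6464119-6464134: cgttaCAGGTGcgccc
CRB3, 89 bases before, chr19:6464177-6464192: aggctCAGGTGcacaa
CRB3, 60 bases before, chr19:6464206-6464221: tctccCAGGTGagtga
CLDN7, 174 bases before the start, chr17:7262642-7262657, minus strand: ctcctCACCTGggcaa
CLDN7, 135 bases before, chr17:7262603-7262618: cggttCAGGTGagtgt
CLDN7, 20 bases before, chr17:7262488-7262503: atactCAGGTGcgccc
CLDN7, 9 bases before, chr17:7262477-7262492: cgcccCACCTGtccgc

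The matches in these stretches lie upstream of 1 RefSeq start of each gene, and the last CLDN7 stretch runs past that start. Of the 13 risen genes with a window, 6 held the pattern (CRB3, CLDN7, PRKCZ, PATJ, OCLN and TJP1) and 7 did not (CLDN3, CLDN4, CLDN12, CLDN16, MARVELD2, CGN and CGNL1). Of the 9 other members with a window, 1 held it, CLDN18. Over all 27305 genes with a window, 20.6% held it in at least 1 window. Whether holding the pattern goes with a rise was not tested. Genes with more windows have more chances to hold it, and among the members with a match PRKCZ, TJP1, OCLN, CLDN7 and CLDN18 had more than 1 window. The first 4 CRB3 stretches and part of the last lie in an exon of another CRB3 transcript in GENCODE 29. All 4 CLDN7 stretches likewise lie wholly or in part in exons of other CLDN7 transcripts, and the other CLDN7 window held no match. PATJ, the other steeply rising Crumbs gene, had 2 matches in its window. Its stretch upstream of every annotated PATJ exon that reaches the window, chr1:61742230-61742405 on the plus strand, holds 1 of them, shown in capitals, and overlaps an exon of a neighbouring long noncoding RNA gene in GENCODE 29.
PATJ: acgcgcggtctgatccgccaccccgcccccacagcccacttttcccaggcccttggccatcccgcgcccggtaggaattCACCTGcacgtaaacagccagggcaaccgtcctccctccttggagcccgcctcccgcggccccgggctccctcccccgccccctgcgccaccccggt

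Several members lie where neighbouring genes moved together, so each was also set beside its neighbours, the 50 genes nearest to it on its chromosome whose mean reached 10 RPM, by their median log2 fold change, an alternative chosen after seeing the data. The 4 members of chromosome 7 lay among genes with medians of 0.62 to 0.64 and the 5 of chromosome 3 among genes with medians of 0.42 to 0.62. The 4 members of chromosome 1, PATJ, CGN, PRKCZ and F11R, all rose, while the genes around them had medians of -0.52 to -0.35. With these medians divided out, 18 of the 19 risen genes still passed, all but CLDN12. The log2 fold change of CLDN4 was then 4.08 (adjusted p = 0.00334), that of CLDN3 1.90 (adjusted p = 0.00517) and that of PATJ 4.18 (adjusted p = 0.000569, limma). CLDN15, on the same chromosome as CLDN3 and CLDN4, had a log2 fold change of -0.05 as measured and of -0.52 with the median of its neighbours divided out (adjusted p = 0.253, limma).

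**Figure D3:**
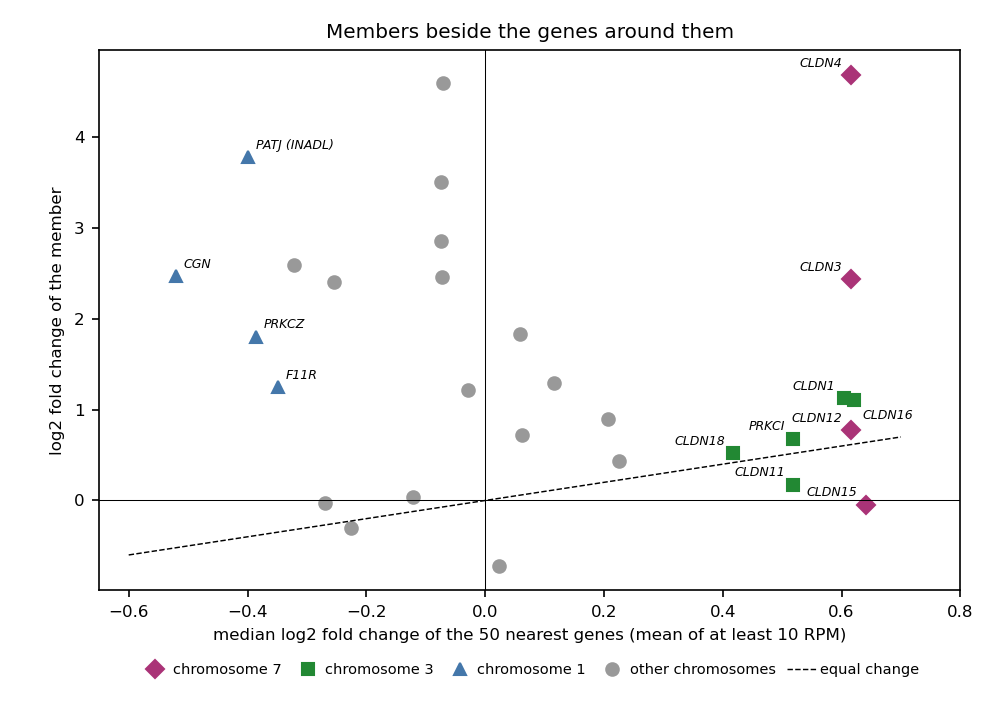
Log2 fold change of each of the 29 members with reads against the median change of its 50 nearest neighbours (genes whose mean reached 10 RPM), with a dashed line where both are equal and the members of chromosomes 7, 3 and 1 named. CLDN4 and CLDN3 lie far above the line at a neighbour median of 0.62, CLDN12 lies close to it, and the 4 members of chromosome 1 rose among genes with negative medians.

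Further genes of the same structures were followed with a list of 38 genes, all in the table, that holds scaffolds, angulins, other claudins and the remaining polarity genes. Of these, 9 rose (23.7%) and 2 fell (5.26%), against 7.59% and 7.49% of all genes, and 8 were at or under the floor in both lines. The list had a median of 0.08 on the log2 scale, and of 0.06 when genes at the floor of 1 line were set at their bound. With the replicate block 5 rose, all of them among the 9, and 2 fell, PARD3B and LLGL1. The median of the 34 members stayed at 1.00 when their genes at the floor of 1 line were set at their bound.

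On the log2(RPM + 1) scale the largest rise on the second list was that of ESAM, an adhesion protein of endothelial tight junctions. ESAM had 0.190, 0.214 and 0.582 RPM in HuCCT1/CD90− and 3.97, 3.49 and 3.15 RPM in HuCCT1/CD90+ (log2 fold change 1.78, adjusted p = 0.00339, limma). These were 2, 2 and 6 reads in HuCCT1/CD90−, near the floor, and 37, 30 and 29 reads in HuCCT1/CD90+. DLG1, a Scribble complex scaffold, was at 71.3 to 81.3 RPM against 205 to 226 RPM (log2 fold change 1.46, adjusted p = 0.000958), and at 0.85 (adjusted p = 0.00357, limma) with the change of its neighbours divided out.

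AMOTL1 and AMOTL2, angiomotin family proteins that bind the Hippo pathway protein YAP, rose by log2 fold changes of 0.79 (adjusted p = 0.0111) and 0.84 (adjusted p = 0.0195, limma). AMOTL1 did not pass with the replicate block (adjusted p = 0.0705), and its log2 fold change was under the 1.5-fold limit with the change of its neighbours (0.51) or the median of its chromosome (0.55) taken out. AMOTL2 did not pass with the change of its neighbours divided out (adjusted p = 0.147), nor without HuCCT1/CD90− replicate 3 or any 1 HuCCT1/CD90+ library (0.066 to 0.0742, limma). MAGI1, a junctional scaffold, rose by 0.65 (adjusted p = 0.00104, limma), as did MARK2, a PAR-1 kinase of the basolateral side (log2 fold change 0.65, adjusted p = 0.00181, limma). With the median of the chromosome taken out, both were under the 1.5-fold limit, at 0.47 for MAGI1 and 0.41 for MARK2, and MARK2 was also under it with the change of its neighbours divided out (0.46). MAGI1 was also under the limit with a pseudocount of 5 RPM (0.49). The MAGI1 paralog MAGI3 fell by 1.12 on the log2 scale (adjusted p = 0.0135, limma, or 0.0793 with the replicate block), with 11.4 to 13.0 RPM in HuCCT1/CD90− against 4.12 to 6.40 RPM in HuCCT1/CD90+. It did not pass without HuCCT1/CD90− replicate 1 or 3 or without HuCCT1/CD90+ replicate 1 (adjusted p of 0.0517 to 0.057, limma). PARD3B, a relative of PAR-3, fell by 0.82 on the log2 scale, from 25.1 to 30.2 RPM to 13.7 to 16.9 RPM (adjusted p = 0.0113, limma). LLGL1, the paralog of LLGL2, had 66.6 to 91.7 RPM in HuCCT1/CD90− against 40.7 to 53.6 RPM in HuCCT1/CD90+, a log2 fold change of -0.67 that passed the study's limits. Its adjusted p was 0.0712 with limma, 0.0366 with limma and the replicate block, 0.00281 with edgeR and 0.000931 with DESeq2. The log2 ratio of LLGL2 to LLGL1 was -2.47 to -2.19 in HuCCT1/CD90− and 0.14 to 0.29 in HuCCT1/CD90+.

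**Figure D4:**
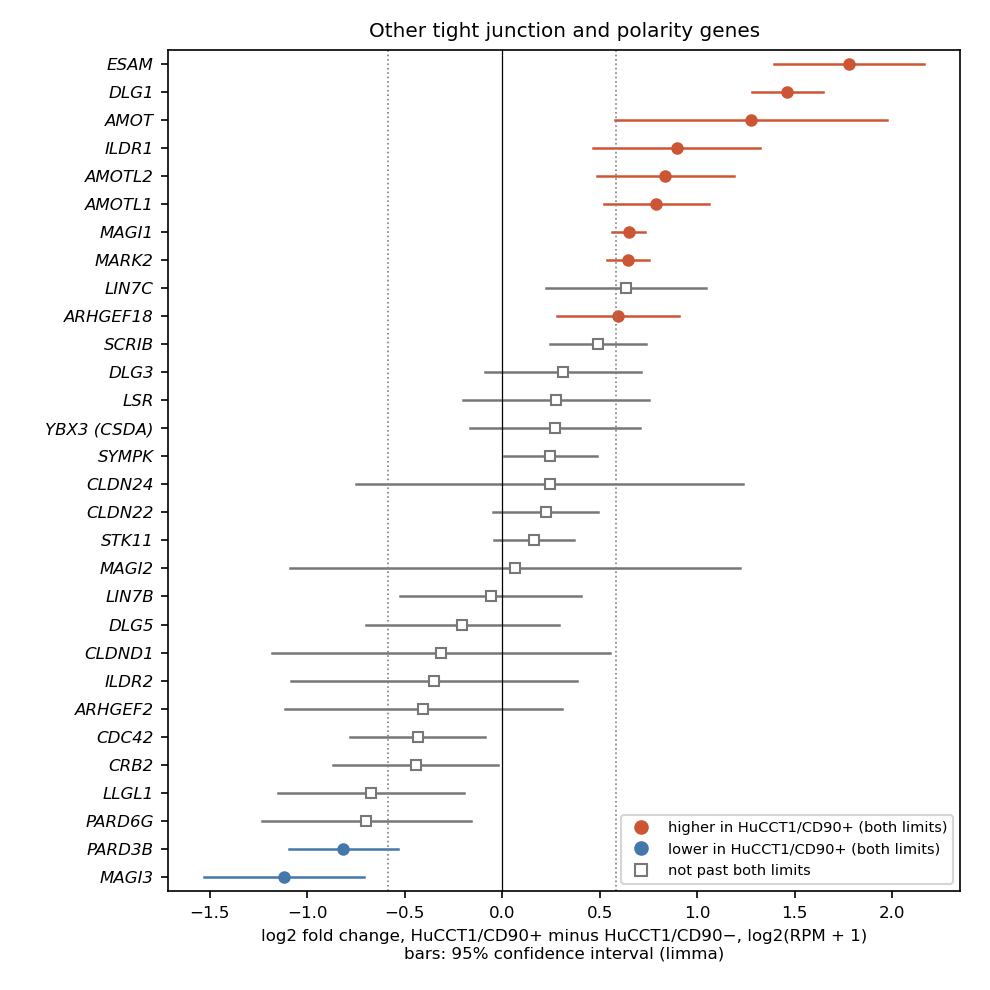
Log2 fold change of the 30 genes of the second list that were above the floor in at least 1 line, HuCCT1/CD90+ minus HuCCT1/CD90−, on log2(RPM + 1), with 95% confidence intervals from limma and dotted lines at a 1.5-fold change. Filled red circles mark the 9 genes that rose, led by ESAM at 1.78, filled blue circles PARD3B and MAGI3, which fell, and open squares the genes that did not pass both limits.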

How the data were processed

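The values were deposited as RPM for 20811 genes in 6 libraries. Per the labels and the methods, the authors made the libraries from total RNA with an Ion AmpliSeq panel for the human transcriptome, ran them on an Ion GeneStudio S5 Prime sequencer and obtained read counts with the Torrent Suite plugin ampliSeqRNA. How these were scaled to the deposited RPM is not given in the sources used here. The submitters' processing notes name the build hg19 and the Transcriptome Analysis Console. All deposited RPM values (100%) were whole multiples of 1 read within 0.001 RPM, so whole reads were recovered for edgeR 4.0.16 and DESeq2 1.42.0. The main test was limma 3.58.1 in R 4.3.3 (lmFit and eBayes with default settings) on log2(RPM + 1) over all genes, and scripts were tested on simulated data. The members, lists and tests were chosen with earlier results of these data known.

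Values per library are given for members that rose or fell and for other members with a mean of at least 10 RPM, and on the second list at most 8 genes that rose or fell are named, by size of change among those with a mean over all libraries of 1 RPM or more. LLGL1 and the genes paired in ratios were added with their values known. Where all libraries of a line were at or under 3 reads, a fold was set against the largest floor of that line. Same-numbered libraries deviated together (r = 0.209, 0.32 and 0.178 for numbers 1, 2 and 3, against -0.294 to 0.071 for other pairs). The numbers were taken, from this check alone, to pair the libraries. The main limma test did not use this pairing. With the replicate block the adjusted p of each of the 19 risen members was larger, as 0.0103 for CRB3, 0.011 for OCLN and 0.0493 for F11R (limma). Positions and names of neighbouring genes came from RefSeq, where 19883 genes had a chromosome. Some items of these structures and marker lists are not reported here, and the counts are over the genes kept.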

Additional observations from a re-analysis of the deposited data

How the results depend on the processing

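The count of 19 risen members stayed between 14 and 21 in each alternative run, and 14 of the 19 passed with any 1 library left out. Leaving out 1 library gave 14 to 18 risen members and 0 fallen ones, 20 to 21 members higher and 0 to 1 lower by the study's limits, and 5 to 7 genes higher and 1 to 2 lower on the second list. With the replicate block 18 members rose, CGNL1 and CLDN16 being lost and PRKCI gained, and it changed no other call among the members. With the block, 0 members were lower by the study's limits and 5 genes of the second list were higher. The 1 member lower by those limits, CLDN2, was also lost, leaving 0, with a pseudocount of 5 RPM and quantile normalization. A filter that kept genes with a mean of 1 RPM or more and edgeR gave 0 as well, because CLDN2 was under their filters and not tested, while a pseudocount of 0.1 RPM and DESeq2 each gave 1 fallen member by the adjusted limits. On the second list, a pseudocount of 5 RPM and the subtracted chromosome median each gave 5 risen genes, a minimum fold of 2 gave 3 risen and 1 fallen, and median centring and DESeq2 gave 4 fallen. The log2 fold change of CXADR crossed 0 with quantile normalization (-0.001) and without HuCCT1/CD90− replicate 1 (-0.07), HuCCT1/CD90+ replicate 1 (-0.106) or HuCCT1/CD90+ replicate 3 (-0.041), over a range of -0.106 to 0.253 with 1 library left out. That of PARD6A crossed 0 with quantile normalization (0.011), without HuCCT1/CD90− replicate 1 (0.025) or HuCCT1/CD90+ replicate 3 (0.079), over a range of -0.119 to 0.079 with 1 library left out, and with the chromosome median (0.25) or the neighbour median (0.222) taken out. The cause was not tested. Depth limits the genes near 3 reads per library, CGNL1, CLDN2 and CLDN18 among them.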
